A study of Mus musculus with 12 samples.

Results

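The genes described here are 7 transcription factors that drive epithelial-to-mesenchymal transition (EMT), Snai1, Snai2, Twist1, Twist2, Zeb1, Zeb2 and Prrx1, and 3 cadherins, Cdh1, Cdh2 and Cdh11. They were chosen by name, and their level was followed as mouse embryonic fibroblasts (MEF) were reprogrammed to pluripotency. All 10 had a probe set annotated to that gene alone, among 19938 genes measured in this way. All 10 were also among the 13044 genes kept for testing, those brighter than the array median on 1 or more of the arrays.

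RNA from 12 mouse cell samples was measured, 1 array per combination of genotype and stage. The study compared genotypes of Mbd3, which encodes a NuRD complex protein that acts on chromatin. Cells labelled Mbd3-/- gave 2 arrays, MEF and embryonic stem cells (ESC), and their labels name no reprogramming transgene. Cells labelled Mbd3flox/- (flox/-) carried a doxycycline (DOX)-inducible transgene for Oct4, Sox2, Klf4 and Myc (OSKM) and gave 4 arrays, MEF, DOX days 4 and 8, and induced pluripotent stem cells (iPSC). No label says that the floxed copy had been recombined. Mbd3+/+ (WT) cells with the same transgene gave 5 arrays, MEF, DOX days 4, 8 and 11, and iPSC. A WT ESC line, V6.5, gave 1 array. Per the labels, irradiated MEF served as feeders under all cultures, in an ESC medium containing 2i and LIF, so feeder RNA can be in any sample. The WT day 8 and WT ESC arrays came from an earlier series, and the source name of the WT day 8 array gives 4 days where its title and stage label give 8.

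In EMT, epithelial cells lose E-cadherin, the product of Cdh1, and gain N-cadherin (Cdh2), the mesenchymal cadherin-11 (Cdh11) and a motile, fibroblast-like shape. Snail (Snai1, Snai2) and Zeb (Zeb1, Zeb2) zinc-finger proteins repress Cdh1 through E-box sequences, while the helix-loop-helix proteins Twist1 and Twist2 and the homeobox protein Prrx1 mark and promote mesenchyme. Reprogramming of fibroblasts runs this change backwards, as a mesenchymal-to-epithelial transition (MET), and MET is known as an early event after OSKM induction. MicroRNAs of the miR-200 family repress Zeb1 and Zeb2, and the Zeb proteins repress the miR-200 genes in turn.

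The promoter windows of Snai1, which was more than 2-fold below MEF in both genotypes at day 4, and of Twist1, which was not below MEF in WT cells at day 4, are shown with the E-box bound by Snail and Zeb proteins in capitals. The letters searched were CACCTG and, for the other strand, CAGGTG. Each window runs from 250 bases before to 50 bases after a RefSeq start (GRCm38.p6), at chr2:167537945-167538244 on the plus strand for Snai1 and chr12:33957421-33957720 on the plus strand for Twist1.
Snai1: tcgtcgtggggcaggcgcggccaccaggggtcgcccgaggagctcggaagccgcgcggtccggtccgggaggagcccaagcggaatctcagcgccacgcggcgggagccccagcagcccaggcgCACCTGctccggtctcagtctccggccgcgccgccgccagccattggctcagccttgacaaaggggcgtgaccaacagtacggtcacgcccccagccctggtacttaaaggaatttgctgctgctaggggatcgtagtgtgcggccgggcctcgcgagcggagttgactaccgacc
Twist1: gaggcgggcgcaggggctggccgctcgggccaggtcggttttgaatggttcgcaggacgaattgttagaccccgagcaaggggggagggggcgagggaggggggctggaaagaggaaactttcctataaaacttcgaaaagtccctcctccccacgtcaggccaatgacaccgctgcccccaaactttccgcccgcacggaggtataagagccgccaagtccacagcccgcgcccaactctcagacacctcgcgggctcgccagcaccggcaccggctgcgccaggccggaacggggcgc
The Snai1 window holds 1 match, whose first base lies at -126 from the start, and the Twist1 window none of these letters. RefSeq windows were matched for 5 of the 10 genes (8 windows), and only the Snai1 window had a match. Of all 32851 windows of 300 bases, 20.2% hold at least 1 match.

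The mature miR-200 sequences named above fall into 2 seed groups, shown with the seed (bases 2 to 8) in capitals.
mmu-miR-200a-3p: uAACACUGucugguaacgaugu
mmu-miR-141-3p: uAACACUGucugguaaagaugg
mmu-miR-200b-3p: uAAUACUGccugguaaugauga
mmu-miR-200c-3p: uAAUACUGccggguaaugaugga
The host loci were dim on these arrays. Of the 6 miR-200 and miR-205 genes listed, 5 were measured and 0 passed the filter on dim genes, so none was tested. The log2 signal of the Mir200b locus was 4.23 in -/- MEF, 4.32 in flox/- MEF and 4.20 in WT MEF, and it reached 5.73 on the flox/- day 8 array and 5.68 on the WT iPSC array, all below the array median of 6.31.

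Markers matched the labelled cell states at both ends. Averaged over 8 markers of pluripotent cells, the log2 signal was 11.7 to 11.95 on the 4 pluripotent arrays, against 4.95 to 5.16 on the 3 MEF arrays. The average of 9 fibroblast markers was 7.02 to 9.55 on pluripotent arrays, against 11.6 to 11.8 on MEF arrays. Fibroblast markers thus stayed above the array median in pluripotent cultures (6 to 9 of 9), most of all in WT iPSC. MEF also held macrophage RNA, with a 9-marker average of 7.26 in -/-, 9.44 in flox/- and 10.3 in WT MEF. On the WT day 8 array the 8 pluripotency markers averaged only 6.40, while 7 keratinocyte markers averaged 8.21, against 5.41 to 6.42 on the other DOX arrays. Only 3 of these 7 keratinocyte markers were above the array median on WT day 8, and only 3 of the 7 were kept for testing.

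The endpoint of the switch was clear for every one of these genes. Cdh1 rose and the other 9 fell in pluripotent cells relative to MEF (limma over all genes, adjusted p from 2.88e-06 to 0.00219). Between these states 60.0% of all genes tested were called, 30.1% higher and 29.9% lower, so a call by itself was common. The median log2 change of the 10 genes was -3.29, beside 0.03 over all genes. All 10 also separated the groups without overlap, as did 63.2% of all genes. Against the MEF of their own genotype, 1 array each, flox/- iPSC had Cdh1 more than 2-fold higher and 8 genes more than 2-fold lower, all but Zeb1, beside 35.7% of all genes past 2-fold. WT iPSC had 1 higher and 9 lower, beside 34.4% of all genes. In cultures, fewer fibroblasts and less RNA per fibroblast cannot be told apart.

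Cdh1 (chromosome 8, 106603350 to 106670247, GRCm38.p6) encodes the adhesion protein of epithelial junctions. Its log2 signal was 5.80 in -/- MEF, 5.65 in flox/- MEF and 6.11 in WT MEF, below the array median in each. After 4 days of DOX it was 10.52 in flox/- and 10.30 in WT cells, at day 8 it was 11.19 in flox/- and 12.01 in WT cells, and at day 11 it was 11.37 in WT cells. In iPSC it was 11.02 in flox/- and 11.57 in WT cells, and in ESC 11.61 in -/- and 11.17 in WT cells. All DOX and pluripotent arrays lay above all MEF arrays, and WT day 8 was the highest of the 12. Cdh1 averaged 11.34 ± 0.29 in pluripotent cells and 5.85 ± 0.23 in MEF (SD, n = 4 and n = 3), a 45.0-fold difference (log2 change 5.49 ± 0.19 SE, limma adjusted p = 2.88e-06) against MEF signals below the array median.

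**Figure D1:**
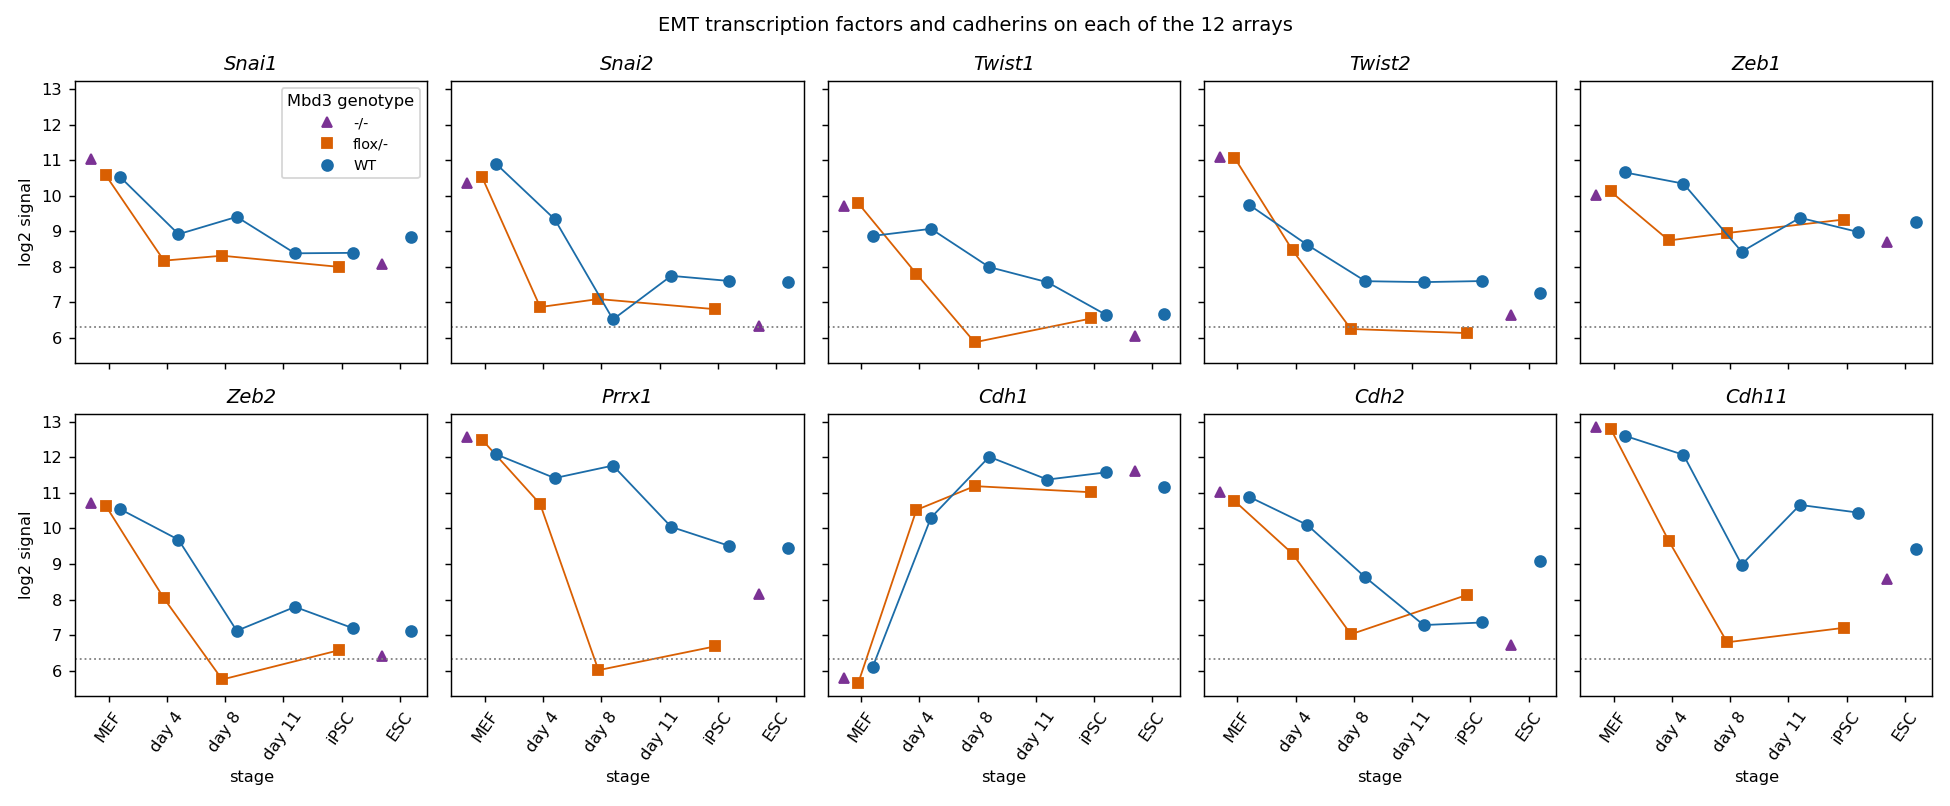
Log2 signal (vertical axis) of each gene at each stage (horizontal axis) for -/-, flox/- and WT cells, 1 point per array, with lines joining flox/- and WT arrays in time order up to iPSC and a dotted line at the array median of 6.31. Cdh1 is at least 10.30 on every array after MEF, Snai1 is already below its MEF signals at day 4, and Prrx1 is still at 11.77 on the WT day 8 array.

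Among the Snail genes, Snai1 (chromosome 2, 167538195 to 167542814) was below its MEF signals on every DOX array. Its log2 signal was 11.02 in -/- MEF, 10.58 in flox/- MEF and 10.52 in WT MEF. It was 8.18 in flox/- and 8.92 in WT cells at day 4, 8.31 in flox/- and 9.41 in WT cells at day 8, and 8.38 in WT cells at day 11. The iPSC signal was 8.00 in flox/- and 8.39 in WT cells, and in ESC 8.07 in -/- and 8.84 in WT cells. Every DOX array was thus below every MEF array, and the range of the DOX arrays overlapped that of the pluripotent ones. The WT day 4 and WT day 8 arrays were above all pluripotent arrays. Snai1 was 5.21-fold lower in pluripotent cells than in MEF (8.33 ± 0.39 SD, n = 4, against 10.71 ± 0.27 SD, n = 3, limma adjusted p = 0.000152) and stayed above the array median on all 12 arrays.

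Snai2 (chromosome 16, 14705852 to 14709395), which encodes Slug, split the genotypes at day 4. Its log2 signal was 10.36 in -/- MEF, 10.53 in flox/- MEF and 10.89 in WT MEF. At day 4 it was 6.87 in flox/- cells, within the pluripotent range, and 9.34 in WT cells, between MEF and pluripotent cells. It was 7.10 in flox/- and 6.52 in WT cells at day 8, and 7.75 in WT cells at day 11. Pluripotent arrays ran from 6.33 in -/- ESC to 7.60 in WT iPSC and overlapped the later DOX arrays. Snai2 was 11.4-fold lower in pluripotent cells than in MEF (7.08 ± 0.62 SD, n = 4, against 10.59 ± 0.27 SD, n = 3, limma adjusted p = 0.000129).

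The Zeb genes differed in how much signal was left. Zeb1 (chromosome 18, 5591327 to 5775468) had the smallest change of the 10, 2.29-fold lower in pluripotent cells than in MEF (9.07 ± 0.28 SD, n = 4, against 10.26 ± 0.34 SD, n = 3, limma adjusted p = 0.00219). It stayed at or above 8.43 on every array. Its lowest array was WT day 8 (8.43), not a pluripotent one, and its WT day 4 signal of 10.34 lay within the MEF range of 10.02 to 10.65, where the flox/- day 4 signal was 8.74. At day 8 Zeb1 was 8.95 in flox/- cells, and at day 11 it was 9.38 in WT cells. In iPSC it was 9.33 in flox/- and 8.98 in WT cells, and in ESC 8.71 in -/- and 9.26 in WT cells.

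Zeb2 (chromosome 2, 44983512 to 45117442) fell further, 14.01-fold (6.82 ± 0.39 SD in pluripotent cells, n = 4, against 10.63 ± 0.09 SD in MEF, n = 3, limma adjusted p = 2.04e-05). Its log2 signal was 10.72 in -/- MEF, 10.64 in flox/- MEF and 10.54 in WT MEF. Mouse macrophages also make Zeb2, and the average of 9 macrophage markers was 7.26 in -/-, 9.44 in flox/- and 10.3 in WT MEF. Their part in the Zeb2 signal was not tested. At day 4 Zeb2 was 8.03 in flox/- and 9.68 in WT cells, at day 8 it was 5.75 in flox/- and 7.12 in WT cells, and at day 11 it was 7.79 in WT cells. The order from MEF through day 4 to the later arrays held in each genotype without overlap. In iPSC it was 6.57 in flox/- and 7.19 in WT cells, and in ESC 6.41 in -/- and 7.12 in WT cells.

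Twist1 and Twist2, paralogous factors of mesoderm and mesenchyme, parted in WT cells at day 4. Twist1 (chromosome 12, 33957671 to 33959831) was 9.72 in -/- MEF, 9.79 in flox/- MEF and 8.87 in WT MEF. At day 4 it was 7.80 in flox/- and 9.07 in WT cells, so the WT array was still inside the MEF range. It was 5.88 in flox/- and 7.99 in WT cells at day 8, and 7.57 in WT cells at day 11. In iPSC it was 6.55 in flox/- and 6.66 in WT cells, and in ESC 6.06 in -/- and 6.67 in WT cells. Twist1 was 7.87-fold lower in pluripotent cells than in MEF (6.48 ± 0.29 SD, n = 4, against 9.46 ± 0.51 SD, n = 3, limma adjusted p = 9.83e-05).

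Twist2 (chromosome 1, 91801461 to 91848034) was 11.10 in -/- MEF, 11.07 in flox/- MEF and 9.75 in WT MEF. At day 4 it was nearly equal in the genotypes, 8.46 in flox/- and 8.62 in WT cells. At day 8 it was 6.25 in flox/- and 7.60 in WT cells, and at day 11 it was 7.57 in WT cells. In iPSC it was 6.14 in flox/- and 7.60 in WT cells, and in ESC 6.66 in -/- and 7.26 in WT cells. Both day 4 arrays lay between MEF and all later arrays. Twist2 was 13.2-fold lower in pluripotent cells than in MEF (6.91 ± 0.65 SD, n = 4, against 10.64 ± 0.77 SD, n = 3, limma adjusted p = 0.000355).

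Prrx1 (chromosome 1, 163245119 to 163315145), a homeobox gene of limb and craniofacial mesenchyme, was the most uneven of the factors. Its log2 signal was 12.56 in -/- MEF, 12.50 in flox/- MEF and 12.08 in WT MEF. At day 4 it was 10.68 in flox/- and 11.41 in WT cells. At day 8 it was 6.01 in flox/- cells, the lowest of the 12 arrays, and 11.77 in WT cells, the highest outside MEF. It was 10.04 in WT cells at day 11, 6.68 in flox/- and 9.51 in WT iPSC, and 8.15 in -/- and 9.45 in WT ESC. Prrx1 was 15.2-fold lower in pluripotent cells than in MEF (8.45 ± 1.33 SD, n = 4, against 12.38 ± 0.26 SD, n = 3, limma adjusted p = 0.00169).

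Of the mesenchymal cadherins, Cdh2 (chromosome 18, 16588877 to 16809246) came down in steps. Its log2 signal was 11.03 in -/- MEF, 10.77 in flox/- MEF and 10.89 in WT MEF. At day 4 it was 9.28 in flox/- and 10.10 in WT cells, at day 8 it was 7.02 in flox/- and 8.62 in WT cells, and at day 11 it was 7.28 in WT cells. The later DOX arrays were below both day 4 arrays, which were below all MEF arrays. Pluripotent lines were spread, at 8.13 in flox/- and 7.35 in WT iPSC, and 6.72 in -/- and 9.09 in WT ESC. Neural cells also make N-cadherin. The average of 6 neural crest and neural markers was 6.97 in flox/- iPSC, 6.95 in WT iPSC, 6.83 in -/- ESC and 7.28 in WT ESC. The part of neural cells in the Cdh2 signal was not tested. Cdh2 was 8.41-fold lower in pluripotent cells than in MEF (7.83 ± 1.02 SD, n = 4, against 10.90 ± 0.13 SD, n = 3, limma adjusted p = 0.00154).

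Cdh11 (chromosome 8, 102632095 to 102785493), the cadherin of osteoblasts and other mesenchyme, was among the brightest genes of MEF, at 12.86 in -/-, 12.80 in flox/- and 12.60 in WT MEF. By day 4 it was 9.64 in flox/- and 12.07 in WT cells. It was 6.80 in flox/- and 8.98 in WT cells at day 8, and 10.66 in WT cells at day 11. The iPSC signal was 7.20 in flox/- and 10.44 in WT cells, and in ESC 8.58 in -/- and 9.41 in WT cells. All WT arrays were thus above the pluripotent arrays of mutated genotype (flox/- iPSC and -/- ESC), and so was the flox/- day 4 array. Cdh11 was 14.4-fold lower in pluripotent cells than in MEF (8.91 ± 1.37 SD, n = 4, against 12.75 ± 0.14 SD, n = 3, limma adjusted p = 0.00203). It is also listed among the genes of 3 probe sets shared with other genes, which were not used.

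The order of events was followed with a model of 4 stages over all 12 arrays (MEF, DOX day 4, DOX days 8 to 11 and pluripotent), in which neighbouring steps share arrays. The first step, day 4 against MEF, held the calls of Cdh1, both Snail genes and Twist2. Cdh1 rose 23.5-fold (10.41 ± 0.15 SD at day 4, n = 2, against 5.85 ± 0.23 SD in MEF, n = 3, log2 change 4.56 ± 0.28 SE, limma adjusted p = 0.000147). Snai1 fell 4.47-fold (log2 change -2.16 ± 0.38 SE, adjusted p = 0.0123), Snai2 fell 5.62-fold (-2.49 ± 0.66 SE, adjusted p = 0.0428) and Twist2 fell 4.29-fold (-2.10 ± 0.56 SE, adjusted p = 0.0442). Thus 1 of the 10 rose and 3 fell, where 9.39% of all genes were called, 5.22% higher and 4.17% lower.

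The other 6 did not pass at day 4. Zeb2 gave a log2 change of -1.77 ± 0.58 SE (limma adjusted p = 0.0806), Cdh2 -1.21 ± 0.65 SE (adjusted p = 0.246), Twist1 -1.02 ± 0.59 SE (adjusted p = 0.278) and Zeb1 -0.72 ± 0.44 SE (adjusted p = 0.306). Prrx1 gave -1.33 ± 1.38 SE (adjusted p = 0.576) and Cdh11 -1.90 ± 1.15 SE (adjusted p = 0.305). Without overlap between the 2 day 4 arrays and the 3 MEF arrays, Cdh1 was higher and 7 genes were lower, all but Twist1 and Zeb1, beside 54.4% of all genes. Across all 5 DOX arrays and the 3 MEF arrays the same gene was higher and the same 7 lower without overlap, beside 30.6% of all genes. The calls of the falling genes depended on single arrays. Without the flox/- day 4 array Cdh1 alone was called, with Snai1 at -1.79 (limma adjusted p = 0.171), Snai2 at -1.26 (adjusted p = 0.434) and Twist2 at -2.02 (adjusted p = 0.331), and 41 genes in all instead of 1225. Leaving out flox/- MEF, -/- MEF or any of the 4 pluripotent arrays left Cdh1 and Snai1 as the calls, leaving out WT MEF lost Snai2 (adjusted p = 0.106), and leaving out WT day 11 lost Twist2 (adjusted p = 0.053). Leaving out flox/- day 8 added a call of Zeb2 (-1.77, limma adjusted p = 0.036) and lost none. With genotype as a block, which pairs the stages of 1 genotype, Zeb2 was called (-1.82, limma adjusted p = 0.0444) and Twist2 was not (-2.04, adjusted p = 0.0696), so the number called was again 4. Without the WT day 4 array 5 were called, Cdh1, Snai1, Snai2, Zeb1 (-1.52, adjusted p = 0.0367) and Zeb2 (-2.60, adjusted p = 0.0302).

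The second step, days 8 to 11 against day 4, set 3 later arrays that differed widely against the 2 day 4 arrays. Limma called 0 of the 10 genes, while 4 had an unadjusted p under 0.05, and 0.0383% of all genes were called, 0.0230% higher and 0.0153% lower. The largest changes were in Cdh2 (-2.05 ± 0.65 SE, limma adjusted p = 0.317), Cdh11 (-2.04 ± 1.15 SE, adjusted p = 0.584), Zeb2 (-1.97 ± 0.58 SE, adjusted p = 0.298) and Prrx1 (-1.77 ± 1.38 SE, adjusted p = 0.704). Snai1, in contrast, gave 0.15 ± 0.38 SE (adjusted p = 0.923), with a 95% interval from -0.70 to 1.003. Cdh1 gave 1.12 ± 0.28 SE (adjusted p = 0.204). On single arrays Cdh1 was higher and Twist2, Zeb2 and Cdh2 lower without overlap between the later and the day 4 arrays, 4 of 10, as were 18.0% of all genes.

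The last step, pluripotent lines against DOX days 8 to 11, showed no call. Limma called 0 of the 10 genes, and 0 had an unadjusted p under 0.05, while 0.00767% of all genes were called. For Cdh1 the log2 change was -0.18 with a 95% interval from -0.70 to 0.33, and for Snai2 it was -0.04 with an interval from -1.26 to 1.18. The interval for Prrx1, from -3.39 to 1.74, was far wider, as its 3 later DOX arrays spread from 6.01 to 11.77. No gene of the 10 separated the groups without overlap, which 8.46% of all genes did.

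**Figure D2:**
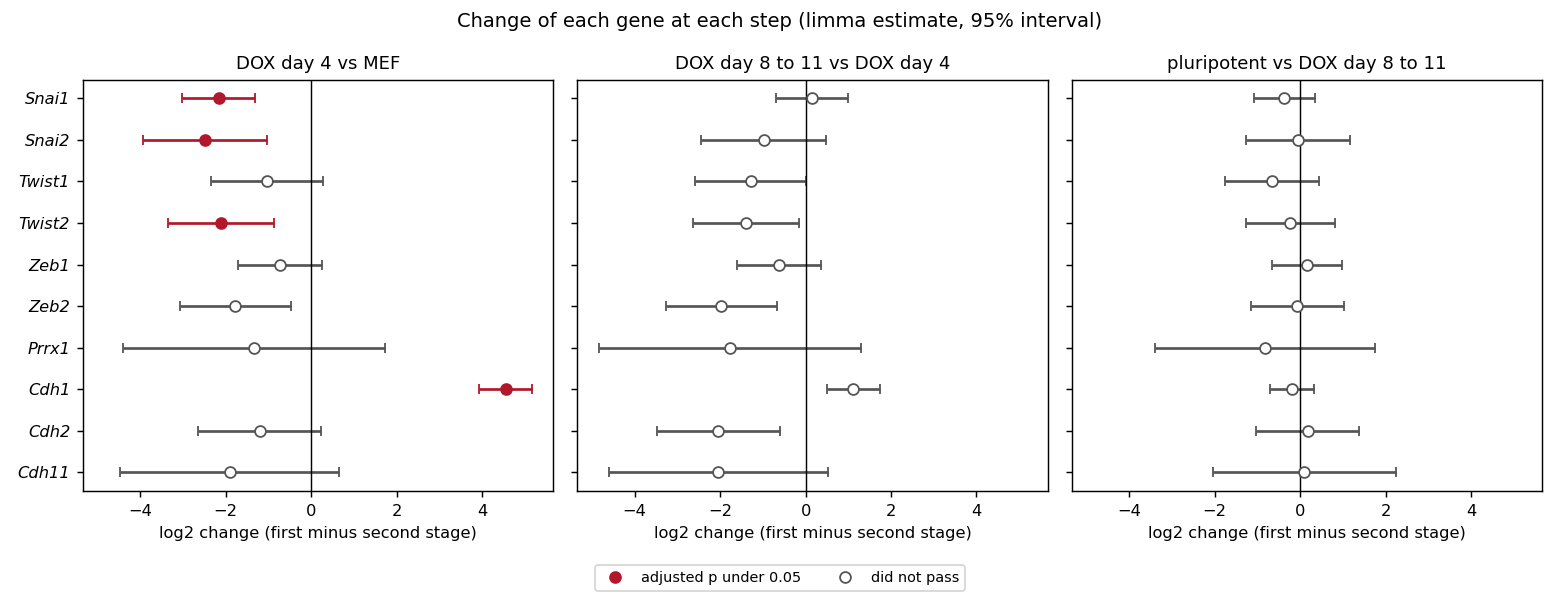
Log2 change (horizontal axis, first-named minus second-named stage) of each gene at the 3 consecutive steps, as limma estimates with 95% intervals, where filled points passed an adjusted p of 0.05. Cdh1, Snai1, Snai2 and Twist2 passed at the first step (4.56, -2.16, -2.49 and -2.10) and none passed later.

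Timing within each genotype was described by placing each DOX array between the MEF and iPSC of its own genotype, with 0 at MEF and 1 at iPSC on the log2 scale. Each array stands for 1 culture, so no test was made. Zeb1 was left out for flox/- cells, where MEF and iPSC differed by less than 1 on that scale. On the flox/- day 4 array the median position of the other 9 genes was 0.613, and on the WT day 4 array that of all 10 was 0.257. Without Cdh1, the only one that rises, the median was 0.589 over 8 genes in flox/- and 0.256 over 9 genes in WT cells. Over all falling genes the median was 0.702 on the flox/- day 4 array and 0.383 on the WT day 4 array. The medians of all falling genes and of these genes were thus both further along in flox/- cells. In each genotype the median of the falling genes of this set was behind the median over all falling genes. Snai1 and Snai2 were ahead of the latter median in both genotypes, and Twist2 was in WT cells. Twist2 stood at 0.529 in flox/- and 0.526 in WT cells and showed no gap in position between the genotypes. Equal positions were not equal falls, as its iPSC minus MEF difference was -4.93 in flox/- and -2.15 in WT cells. By day 4 Twist2 had changed by -2.61 in flox/- and -1.13 in WT cells. The iPSC minus MEF difference was also larger in flox/- than in WT cells for Prrx1 (-5.82 and -2.57) and Cdh11 (-5.60 and -2.16), and smaller for Cdh2 (-2.64 and -3.53).

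Cdh1 and Snai1 were the furthest of the 10 genes in WT cells at day 4, and in flox/- cells they were just behind Snai2. Cdh1 stood at 0.907 on the flox/- day 4 array and at 0.767 on the WT day 4 array, while the median over all rising genes was 0.656 in flox/- and 0.339 in WT cells. In flox/- cells 27.1% of rising genes were at or past the position of Cdh1, and in WT cells 13% were. Snai1 stood at 0.932 in flox/- and 0.754 in WT cells, where 20.5% of falling genes in flox/- and 13% in WT cells were at or past it. Snai2 was the furthest of the 9 genes in flox/- cells (0.984, with 15.7% of falling genes at or past it) and behind Cdh1, Snai1 and Twist2 in WT cells (0.472).

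The gene least far along differed between the genotypes at day 4, Prrx1 in flox/- and Twist1 in WT cells. Twist1 was at 0.613, the median of the 9 genes, in flox/- and at -0.090 in WT cells, where 91.3% of falling genes were at or past it. Prrx1 was at 0.312 in flox/- and 0.258, close to the median of the 10, in WT cells, and 82.3% of falling genes in flox/- and 66.8% in WT cells were at or past it. The mesenchymal cadherins Cdh2 and Cdh11 stood at 0.564 and 0.564 in flox/- and at 0.224 and 0.247 in WT cells. In WT cells at day 4 Cdh1 was closer to its iPSC than to its MEF signal, though still 1.27 below iPSC on the log2 scale. Cdh2, Cdh11 and Prrx1 were closer to their MEF signal there.

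Counted against the MEF of their own genotype at day 4, 1 array each, Cdh1 was more than 2-fold higher and 9 genes more than 2-fold lower in flox/- cells, beside 28.7% of all genes, and 1 higher and 3 lower (Snai1, Snai2 and Twist2) in WT cells, beside 12.4%. At day 8 the counts were 1 higher and 9 lower in flox/- cells, beside 36.8%, and 1 higher and 7 lower in WT cells, beside 25.2%, and at day 11 they were 1 higher and 9 lower in WT cells, beside 24.6%.

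By median position the switch was nearly complete on 2 of the 3 later arrays, relative to iPSC of the same genotype. These endpoints differed, as WT iPSC were above flox/- iPSC in Cdh11 (10.44 and 7.20) and Prrx1 (9.51 and 6.68). In Zeb1 and Cdh2 WT iPSC were below flox/- iPSC. On the flox/- day 8 array the 9 genes had positions from 0.879 (Snai1) to 1.42 (Cdh2), with a median of 1.07, and 6 of them were at or past the iPSC signal. On the WT day 11 array the 10 genes ran from 0.589 (Twist1) to 1.02 (Cdh2), with a median of 0.928. Without Cdh1 the median was 1.09 on the flox/- day 8 array and 0.900 on the WT day 11 array. The median over all falling genes was 1.02 on the flox/- day 8 array and 0.726 on the WT day 11 array.

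The WT day 8 array, from the earlier series, held an unusual mixture. Cdh1 (1.08), Zeb1 (1.33), Snai2 (1.33), Zeb2 (1.02), Twist2 (1.002) and Cdh11 (1.68) were at or past the position of WT iPSC, whereas Cdh2 (0.641), Snai1 (0.525), Twist1 (0.396) and Prrx1 (0.121) were not. Cdh1 was thus above and Prrx1 far above its WT iPSC signal on the same array. Fibroblast markers were split on it as well: the collagen gene Col1a1 was at 8.75, against 12.88 in WT MEF, and the proteoglycan gene Dcn at 12.48, against 11.53 in WT MEF. The 8 pluripotency markers had a median position of 0.056 on it, with Nanog at 5.59 and Sox2 at 6.41. Not all were low, as 3 of the 8 were above the array median and 1 was past the midpoint between MEF and iPSC.

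**Figure D3:**
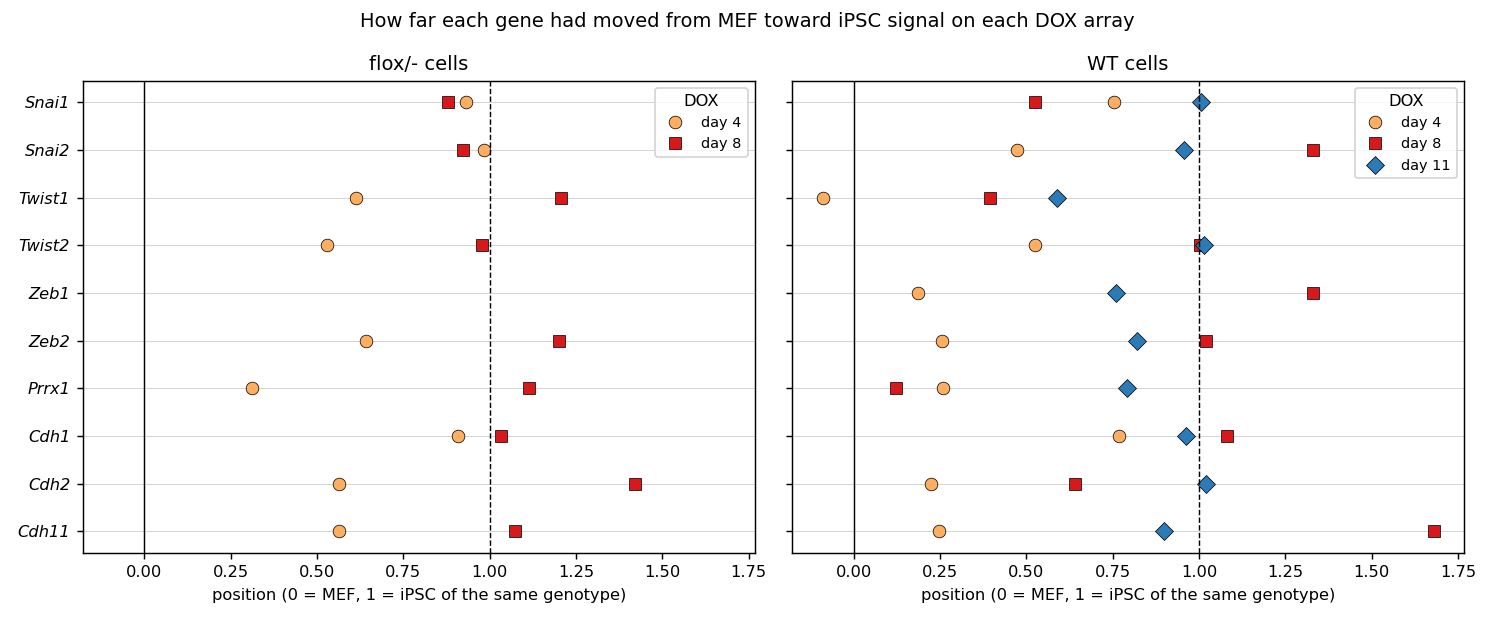
Position of each gene (rows) between the MEF signal (0) and the iPSC signal (1) of the same genotype on each DOX array, flox/- on the left and WT on the right, with colour and shape giving the day. At day 4 Cdh1 is at 0.907 in flox/- and 0.767 in WT cells, while Prrx1 is at 0.312 in flox/- and 0.258 in WT cells.

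Genotype was compared over the 4 stages that flox/- and WT cells share, with stage as a block. All 10 genes had a lower estimate in flox/- cells, yet limma called 0 of them and 0% of all genes, with 2 of the 10 and 852 of all genes at an unadjusted p under 0.05. The largest estimates were in Prrx1 (log2 difference -2.22 ± 1.05 SE, limma adjusted p = 0.693), Cdh11 (-1.91 ± 0.59 SE, adjusted p = 0.693) and Zeb2 (-0.88 ± 0.33 SE, adjusted p = 0.693). Cdh1 gave -0.41 ± 0.22 SE (adjusted p = 0.693), with a 95% interval from -0.96 to 0.15.

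Single stages showed where the estimates came from. In MEF 0 of the 10 genes were at least 2-fold lower in flox/- than in WT cells and 1, Twist2, was at least 2-fold higher, beside 4.12% of all genes past 2-fold. At day 4, 5 were at least 2-fold lower in flox/- cells (Snai2 by -2.47, Cdh11 by -2.43, Zeb2 by -1.65, Zeb1 by -1.60 and Twist1 by -1.27 on the log2 scale). Of all genes 12.9% were past 2-fold there in either direction, and 1049 of 13044 were lower. At day 8, 7 of the 10 were lower, with Prrx1 at 6.01 in flox/- and 11.77 in WT cells. Beside them 31.8% of all genes were past 2-fold in either direction, and 2439 of 13044 were lower. In iPSC, 3 were lower (Cdh11, Prrx1 and Twist2), beside 5.08% of all genes in either direction and 417 of 13044 lower. The fibroblast-marker average was also lower in flox/- cells, 9.22 against 11.1 in WT cells at day 4, 6.86 in flox/- against 8.37 in WT cells at day 8, and 7.02 in flox/- against 9.55 in WT iPSC. Its part in these differences was not tested.

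The -/- genotype was set against WT in a model of the 7 MEF and pluripotent arrays with terms for stage and genotype. There limma called 0 of the 10 genes and 0% of all genes, with 1 of the 10 and 907 of all genes at an unadjusted p under 0.05. Snai2 gave -0.92 ± 0.23 SE (limma adjusted p = 0.686), and Cdh1 gave 0.03 ± 0.24 SE (adjusted p = 0.977), with a 95% interval from -0.62 to 0.67. The interval for Cdh11, from -2.94 to 1.53, left a wide range for differences of either sign.

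Some of the mesenchymal signal in pluripotent cultures had the same order as fibroblast markers. The 9-marker average was 7.02 in flox/- iPSC, 8.39 in -/- ESC, 8.47 in WT ESC and 9.55 in WT iPSC, and Cdh11 had the same order (7.20, 8.58, 9.41 and 10.44). Twist2 had it too (6.14, 6.66, 7.26 and 7.60), and so did Prrx1, with WT ESC and WT iPSC nearly equal at 9.45 and 9.51. Over all 12 arrays Cdh11 followed the markers from 6.80 at a marker average of 6.86 (flox/- day 8) to 12.80 at an average of 11.8 (flox/- MEF). The other 6 falling genes did not have this order. Zeb1 was at 9.33 in flox/- iPSC and 8.98 in WT iPSC, Cdh2 was higher in flox/- iPSC (8.13) than in WT iPSC (7.35), and Snai1 was highest in WT ESC (8.84). Snai2, Zeb2 and Twist1 were higher in flox/- iPSC than in -/- ESC. The part of feeder or unconverted fibroblast RNA in these signals was not tested.

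**Figure D4:**
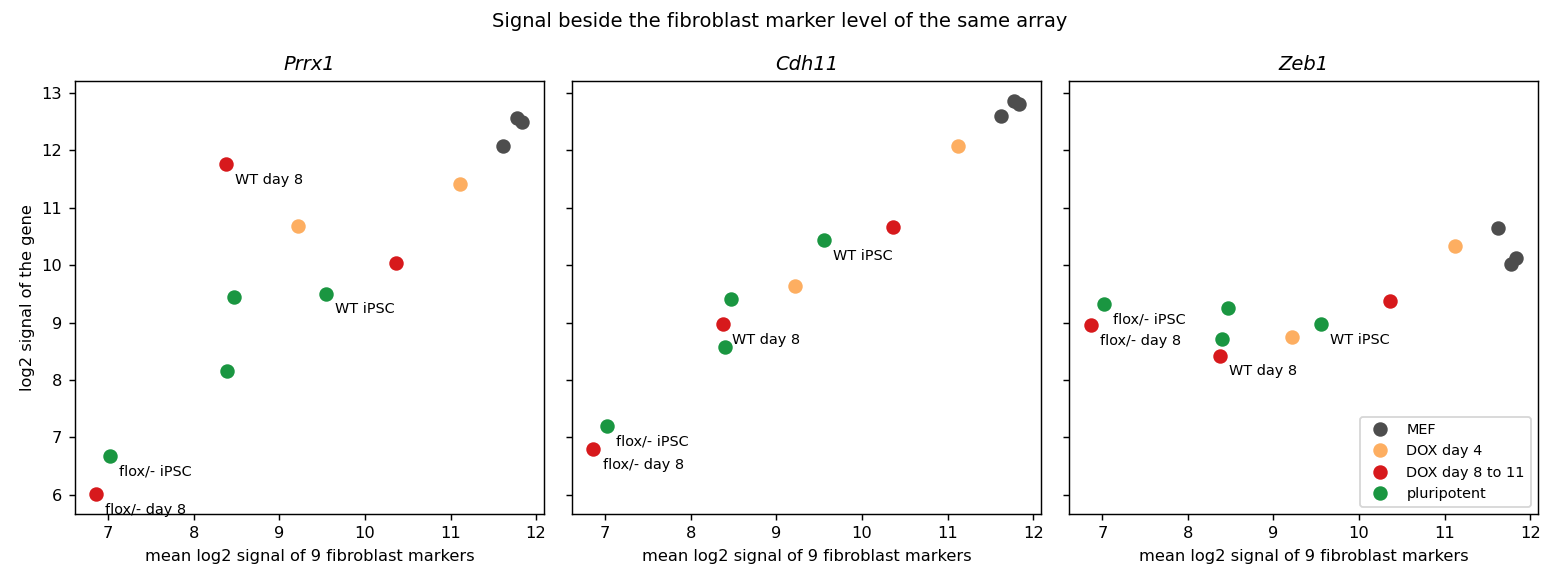
Log2 signal of Prrx1, Cdh11 and Zeb1 (vertical axis) against the mean log2 signal of 9 fibroblast markers on the same array (horizontal axis), 1 point per array, coloured by stage. Cdh11 climbs with the markers from 6.80 to 12.86, and Zeb1 is at 8.95 or 9.33 on the 2 arrays with the lowest marker signal. Prrx1 climbs less evenly, with the WT day 8 array (11.77) far above arrays of similar marker signal. Its flox/- day 4 signal (10.68) is also above WT iPSC (9.51) and WT day 11 (10.04), where the markers are higher.

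Other genes of the switch were counted from lists chosen for the same pathway. The share called over all genes was 60.0% between pluripotent cells and MEF, 30.1% higher and 29.9% lower, and counts near these shares are no result about a list. All 25 kept mesenchymal effector genes fell (median log2 change -3.13, beside 0.03 over all genes), with the most in Postn (18.8-fold), which encodes periostin of the matrix, in Tagln (18.0-fold), which encodes the actin binder transgelin, in the fibrillar collagen gene Col5a2 (15.6-fold) and in the surface protein gene Thy1 (15.2-fold). Of 16 further factors tied to EMT, 12 fell and 2 rose (median -1.77). The largest changes were in Klf8, a Krüppel-like factor, which rose 11.1-fold, and in Prrx2 (9.07-fold), Runx1 (8.98-fold) and the forkhead gene Foxc2 (8.64-fold), which fell. Klf8 is known as an activator of EMT in human cells, and its signal was 10.47 on the flox/- day 4 and 6.95 on the WT day 4 array.

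Epithelial genes rose in the same comparison. Of 27 junction genes 19 rose and 1, Krt19, fell (median 1.23), with the protease inhibitor gene Spint1 (26.2-fold), the desmosomal cadherin gene Dsg2 (15.5-fold), Epcam (15.4-fold) and the protease gene St14 (15.2-fold) in front. Of 13 epithelial transcription and splicing factors 8 rose and 0 fell (median 0.97), among them Elf3 (24.9-fold), the grainyhead gene Grhl3 (12.7-fold), Tfap2c (6.87-fold) and Klf5 (6.19-fold). Of 6 other cadherins 5 fell and 0 rose (median -1.36), with Cdh13 down 10.996-fold and Cdh3 down 5.52-fold. Of 7 catenins and related partners 2 rose and 1 fell (median 0.09), with Pkp4 up 2.47-fold and Ctnnd1, the p120 catenin gene, down 1.80-fold. TGF-beta ligands, receptors and Smads, the best-known inducers of EMT, had 7 of 10 lower (median -1.71), including Tgfb3 (25.7-fold), Tgfbr3 (6.82-fold), Tgfb2 (6.08-fold) and Tgfbr2 (5.52-fold).

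At day 4 fewer of these passed, beside 5.22% of all genes higher and 4.17% lower, and counts this small are no result about the lists. Among mesenchymal effectors Itga5 fell 3.69-fold and Col5a1 3.69-fold, 2 of 25, and Tgfb1 fell 4.55-fold, 1 of 10. Of the further EMT factors Foxc2 (5.03-fold) and Sox9 (4.30-fold) fell, 2 of 16, and of the other cadherins Cdh3 fell 5.43-fold, 1 of 6. Spint1 rose 6.48-fold and St14 4.91-fold, 2 of 27 junction genes, and Grhl3 rose 5.28-fold, 1 of 13 epithelial factors. The median position of junction genes at day 4 was 0.863 over 15 genes in flox/- and 0.151 over 17 genes in WT cells. In WT cells at day 4 Cdh1 (0.767) was therefore well past the median junction gene. At the second step Dsg2 rose 13.1-fold and Llgl2, a cell polarity gene, 8.58-fold (limma adjusted p = 0.0183 each), 2 of 27 junction genes. Over all genes 0.0383% were called at that step, 0.0230% higher. With only the 5 arrays of these stages in the fit, 0 genes were called.

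Likeness over the 12 arrays was measured by Pearson's r of log2 signal against 4290 genes with a range of at least 2 on that scale. It is given as a description, since the arrays fall into cell states. The genes most like Cdh1 were L1td1 (r = 0.984), Pou5f1, which encodes Oct4 and is part of the transgene (r = 0.975), and Apela (r = 0.973). Those most like Snai2 were Rhob (r = 0.986), Cnrip1 (r = 0.984) and Ikbip (r = 0.982), and those most like Prrx1 were Antxr1 (r = 0.977), the collagen gene Col6a1 (r = 0.976) and the matrix gene Fbln2 (r = 0.973). Cdh2 was closest to Magee1 (r = 0.963), Ids (r = 0.959) and Ltbp1 (r = 0.953), and Zeb1 to Lrig3 (r = 0.972), Tnfaip6 (r = 0.951) and Ttyh3 (r = 0.948). Within the 10 genes Zeb2 and Twist2 were closest (r = 0.953), nearly level with Zeb2 and Twist1 (r = 0.953), and Zeb1 and Prrx1 least alike among the factors (r = 0.503).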

How the data were processed

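RNA extracted with TRIzol was labelled with biotin and hybridised to Affymetrix arrays, per the labels' protocols. The values deposited by the authors are log2 signals of 35512 probe sets, from 3.11 to 13.99, whose summary and normalization methods are not given in the sources used here. Array medians spread over 0.122 as deposited, and quantile normalization was applied. All array columns were used. The platform's annotation gave 21789 probe sets a lone symbol, and the probe set with the highest mean stood for each of 19938 genes. The 13044 genes above the array median on at least 1 array entered limma 3.58.1 (R 4.3.3), p-values were adjusted by Benjamini-Hochberg over all of them, and an adjusted p under 0.05 made a call. The pluripotent and MEF states were compared over 7 arrays, the consecutive steps in a model of 4 stages over 12 arrays, and the genotypes with stage as a block or term. Arrays of 1 state and different genotype stood as replicates, no label says which share a culture, and p-values measure the spread between these arrays. The fits were tested on simulated data.

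Every one of the 10 genes is named in each comparison. From each other gene list the text names up to 4 called genes with the largest change between pluripotent cells and MEF and up to 3 at day 4, and for 5 genes the 3 most alike. Others, such as Krt19, Llgl2, Ctnnd1, Col1a1, Dcn, Nanog and Sox2, were named after their values were seen. The genes and lists were chosen with earlier results of these data known. Promoter windows and microRNA sequences are from RefSeq (GRCm38.p6), as are coordinates. Arrays have no sequencing depth, and their number limits the precision.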

Additional observations from a re-analysis of the deposited data

Results flagged for a closer look

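Twist1 fell in flox/- cells at day 4 and changed little in WT cells, where the sign was opposite. The WT day 4 signal (9.07) lay inside the range of the MEF arrays. Its log2 signal changed by -1.99 in flox/- cells, relative to flox/- MEF, and by 0.20 in WT cells, relative to WT MEF. Each change rests on 1 array against 1 array, and the difference between the genotypes was not tested. The WT MEF array had the lowest Twist1 signal of the 3 MEF arrays (8.87, against 9.72 in -/- MEF and 9.79 in flox/- MEF).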

How the results depend on the processing

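Under all 16 alternatives for pluripotent cells against MEF, the 10 genes kept their direction and their calls (160 of 160 values). At day 4 against MEF, Cdh1 kept its call under all 21 alternatives (log2 change 4.45 to 4.68, adjusted p at most 0.0126) and Snai1 under 20 of 21, while Snai2 lost it under 10 and Twist2 under 12. The number of the 10 genes called was 2 with no filter on dim genes and 2 with the 5 arrays of these stages only, and leaving out 1 array at a time gave 1 (without flox/- day 4) to 5 (without WT day 4). Over all genes the day 4 count was 2662 without the arrays of the earlier series, 586 with the 5 arrays only, and 41 to 2674 with 1 array left out (without flox/- day 4 and without WT day 8). Zeb1 ran from -1.52 to 0.074 at this step. For days 8 to 11 against day 4, all genes called numbered 8 with no filter, 271 without the earlier series, 0 with 5 arrays only, 8 with genotype as a block, and 1 to 347 with 1 array left out. Without the earlier series 1 of the 10 genes, Cdh2 (-2.54, adjusted p = 0.0305), was called and Snai1 was -0.20. With 1 array left out Snai1 ran from -0.22 to 0.52, Snai2 from -2.22 to 0.25 and Zeb1 from -1.42 to 0.18. For pluripotent lines against days 8 to 11, all genes called numbered 5 without the earlier series, 0 with a trended robust prior, 0 with 7 arrays only, 0 with genotype as a block, and 0 to 923 (without flox/- day 8) with 1 array left out, and 0 of the 10 genes were called under any. Signs turned at this step without the earlier series for Zeb1 (-0.16), Prrx1 (0.086) and Cdh1 (0.12), and with genotype as a block for Snai2 (0.15) and Zeb2 (0.013). With 1 array left out Snai2 ran from -0.34 to 0.27, Twist2 from -0.67 to 0.032, Zeb1 from -0.095 to 0.38, Zeb2 from -0.63 to 0.39, Prrx1 from -2.45 to 0.42, Cdh1 from -0.35 to 0.062, Cdh2 from -0.24 to 0.67 and Cdh11 from -0.91 to 1.02. For flox/- against WT, Zeb1 ran from -0.59 to 0.11. For -/- against WT, Cdh1 was -0.0024 on the values as deposited, and without the earlier series Snai1 was 0.38, Cdh1 -0.33 and Cdh2 0.36. With 1 array left out Snai1 ran from -0.77 to 0.38, Twist1 from -0.62 to 0.59, Twist2 from -0.88 to 0.66, Cdh1 from -0.33 to 0.44 and Cdh2 from -2.37 to 0.36. In both genotype comparisons limma called 0 genes under each alternative. The causes were not tested beyond the arrays each setting leaves out. Median positions moved by under 0.05 on the values as deposited. Where a lone array was left at day 4, it was assumed to vary like the other stages. The labels give no replicate numbers, and pairing was by genotype, whose block at day 4 against MEF gave 4 of the 10 genes called, with Zeb2 (-1.82, adjusted p = 0.0444) in place of Twist2 (-2.04, adjusted p = 0.0696).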
